A study of Mus musculus with 6 samples.

Results

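The 10 immediate early and quiescence genes described here were followed through whole blood of food-restricted and control mice: Fos, Fosb, Jun, Junb and Jund of the AP-1 family, Egr1, Ier2, Ier5, Klf6 and Klf2. The genes were chosen by name, and every array probe whose RefSeq accession maps to one of them was taken. This gave all 10 genes, through 14 probes, of 16535 gene symbols named on the array. Of these, 11 probes of 7 genes passed the filter on low signal. Fos, Jun and Egr1 did not pass it.

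The blood came from male C57BL/6J mice, an inbred strain, aged 9 weeks, with 8 animals on a normal diet (control) and 8 under 50% food restriction (FR) for 2 weeks. It was drawn from the heart and frozen at once, so white cells, red cells and platelets are measured together. Pool 1 combined animals 1 to 8 of each diet, pool 2 animals 1 to 4 and pool 3 animals 5 to 8, and each pool's FR and control RNA shared 2 Agilent arrays with the dyes (Cy3 and Cy5) exchanged. No animal is in both pool 2 and pool 3, which serve as the 2 replicates of the main tests. Pool 1 mixes those same animals once more, on another slide, and is shown as a repeat. It enters only some alternative fits, where the pools are then not independent.

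Immediate early genes are transcribed within minutes of a growth factor, cytokine or stress signal without any new protein being made, because the factors that switch them on, such as SRF with its Elk partners and CREB, are already present and are activated by MAP kinases. Many of their messages are short-lived, and several encode transcription factors that pass the signal to later genes. Fos and Jun proteins pair to form AP-1. Klf2 is known in T and B lymphocytes as a factor of the resting state, under which cells keep homing receptors such as S1P receptor 1, and it falls when the cells are activated.

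Values are log2 ratios of FR over control, so a value below 0 means lower in FR. Each pool's ratio is the mean of its 2 arrays. A gene counted as changed at an adjusted p under 0.05 in limma, a linear model fitted across all 11501 features, and the mean of pools 2 and 3 is given with its SD (n = 2 pools). Spot brightness is the scanner's background-subtracted signal in arbitrary units, and it ranks samples for 1 probe but not probes against each other. Where the signals of the diets do not overlap, this is a description, as the share of all probes without overlap is not given. An offset of 50 was added to both channels before the ratios, which makes the change of a dim probe look smaller.

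Between arrays, the log2 ratios over tested features correlated at 0.70 to 0.94, and at 0.79 or more within a pool. Control RNA was well above background on 37.2% to 42.3% of spots per array in Cy3 and on 47.8% to 62.1% in Cy5. For FR RNA the ranges were 20.4% to 39.8% in Cy3 and 34.2% to 55.6% in Cy5. The lowest value, 20.4%, was that of FR in Cy3 in pool 3. Over the tested features the median ratio was 0.01, the median size of the difference between pools 2 and 3 was 0.18, and that between the dye orientations was 0.15. Of 7903 named genes tested, 2228 were lower in FR (28.2%) and 256 were higher (3.24%).

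Ier5, Klf6, Jund and Junb were lower in FR, by 4.11-fold, 2.57-fold, 1.97-fold and 1.47-fold. These are 4 of the 7 members tested, beside 28.2% lower among all named genes. Ier5 and Klf6 passed the signal filter through control, where they are high, so this count is a description only. With both diets required above background, Jund and Junb were the 2 lower of 5 members left, beside 21.9% of all named genes. No member was higher, beside 3.24% of all. Fosb, Ier2 and Klf2 did not pass the test through the probe that stands for the gene, the brightest one. Klf2 had a second probe that was 5.78-fold lower in FR. What is called the 3-pool variance takes only its prior degrees of freedom from a fit of all 3 pools, which allows genes to differ more in their error. With it, 3 members stayed lower, beside 17.8% of all named genes. Without the replicate block 3 stayed lower, beside 9.92%.

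The stretch before the start of Ier5, Klf6, Jund and Junb is printed to show which letters the promoters of the 4 lowered genes do and do not share. That of Klf2, whose probes disagreed, is added. Promoters were matched by symbol for 8 of the 10 members in RefSeq (GRCm38.p6), and each is 250 bases long, 5′ to 3′ on the gene's own strand, ending at the base before the annotated start. They are chr1:155099637-155099886 on the minus strand for Ier5, chr13:5861239-5861488 on the plus strand for Klf6, chr8:70697489-70697738 on the plus strand for Jund, chr8:84978749-84978998 on the minus strand for Junb and chr8:72318812-72319061 on the plus strand for Klf2. Capitals mark CCAAT boxes and GC boxes (GGGCGG) on either strand, so that ATTGG and CCGCCC are the same motifs read from the other side.
Ier5: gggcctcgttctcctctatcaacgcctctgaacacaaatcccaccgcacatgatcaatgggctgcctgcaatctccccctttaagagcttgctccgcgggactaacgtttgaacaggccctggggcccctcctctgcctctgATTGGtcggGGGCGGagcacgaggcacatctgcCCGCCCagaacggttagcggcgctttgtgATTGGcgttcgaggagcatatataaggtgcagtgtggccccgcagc
Klf6: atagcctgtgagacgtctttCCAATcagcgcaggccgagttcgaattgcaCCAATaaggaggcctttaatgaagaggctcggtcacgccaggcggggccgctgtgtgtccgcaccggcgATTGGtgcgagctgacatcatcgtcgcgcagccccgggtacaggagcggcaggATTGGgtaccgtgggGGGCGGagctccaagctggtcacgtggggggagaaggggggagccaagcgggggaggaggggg
Jund: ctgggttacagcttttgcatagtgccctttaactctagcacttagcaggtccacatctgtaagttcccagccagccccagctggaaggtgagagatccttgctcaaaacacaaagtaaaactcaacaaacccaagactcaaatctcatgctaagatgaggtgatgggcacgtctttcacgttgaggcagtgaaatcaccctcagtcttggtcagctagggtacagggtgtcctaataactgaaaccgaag
Junb: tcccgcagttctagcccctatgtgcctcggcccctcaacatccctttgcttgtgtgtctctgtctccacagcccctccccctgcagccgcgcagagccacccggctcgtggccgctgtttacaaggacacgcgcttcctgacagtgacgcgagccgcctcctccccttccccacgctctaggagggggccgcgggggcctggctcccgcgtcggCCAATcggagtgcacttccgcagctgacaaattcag
Klf2: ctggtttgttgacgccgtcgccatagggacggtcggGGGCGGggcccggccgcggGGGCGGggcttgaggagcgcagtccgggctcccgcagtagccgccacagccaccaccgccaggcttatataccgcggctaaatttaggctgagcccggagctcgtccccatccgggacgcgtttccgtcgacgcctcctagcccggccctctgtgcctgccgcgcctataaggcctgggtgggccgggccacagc

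Klf6 held 4 CCAAT boxes and 1 GC box, and Ier5 held 2 of each. Klf2 held 2 GC boxes, and Junb 1 CCAAT box that began 36 bases before the start. Over the 8 member promoters, 6 held a GC box, beside 32.7% of 32851 RefSeq promoters of the same length, and 4 held a CCAAT box, beside 33.8%. The TATA box (TATAAA) was found in 1 of the 8, that of Fos, beside 12.4% of all. The motif letters of the CRE (TGACGTCA, 1.55% of all promoters) and the AP-1 site (TGACTCA, 4.46%) were found in 0 of the 8. The same held for the SRF site or CArG box (CC, then 6 letters of A or T, then GG, 1.47%). It also held for the CACCC box bound by Klf factors (CCACACCC, 3.20%). Jund held none of the 7 motifs searched. A match describes letters only, and sites outside these 250 bases or with other letters were not looked for. Ier2 and Egr1 had no promoter entry, so none of the motifs was searched for in them.

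Ier5 encodes an immediate early protein that takes part in heat shock factor signalling and the growth response. Its control signals ran from 1736 to 3931 (median 3305) and its FR signals from 249.0 to 523.8 (median 308.2). No FR signal reached any control signal on the 6 arrays, which is a description, as the probe passed the filter only through control. With FR in Cy5 and then in Cy3, its log2 ratios were -2.83 and -2.21 in pool 1, -2.47 and -2.23 in pool 2, and -1.95 and -1.50 in pool 3. All 6 arrays were below 0, and pool 3 was the least lowered. The mean of pools 2 and 3 was -2.04 ± 0.44 (SD, n = 2; limma adjusted p = 4.01e-37, or 0.00253 with the 3-pool variance). FR signal was well above background on 3 of the 4 arrays of pools 2 and 3. On the scanner's processed signals, without the offset, the ratio was -3.11.

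Klf6 is a zinc finger factor of the Krüppel-like family, induced early in activated cells and abundant in myeloid cells. Through probe A_51_P451346, which stands for the gene, control signals ran from 1143 to 2154 (median 1289) and FR signals from 176.6 to 502.1 (median 284.4). The groups did not overlap, but this probe too passed the filter only through control. Its log2 ratios, FR in Cy5 and then Cy3, were -1.63 and -1.79 in pool 1, -1.60 and -1.45 in pool 2, and -1.27 and -1.13 in pool 3. Here too every array was below 0 and pool 3 lay nearest to it. The mean was -1.36 ± 0.22 (SD, n = 2; limma adjusted p = 2.28e-16, or 0.00416 with the 3-pool variance), and -2.30 on the processed signals.

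The second Klf6 probe, A_51_P503162, gave a smaller change. On the arrays it read -0.77 and -0.59 in pool 1, -0.66 and -0.55 in pool 2, and -0.52 and -0.34 in pool 3. Its mean was -0.52 ± 0.12 (SD, n = 2; limma adjusted p = 0.00277 with each probe a feature, and 0.0529 with the 3-pool variance, where the call was lost). FR signals of 304.6 to 742.6 overlapped control signals of 490.7 to 990.2. The difference between the probes was -0.84 ± 0.10 (SD, n = 2 pools; limma adjusted p = 0.00548) and lay between -1.19 and -0.75 on the 6 arrays. With each probe a feature, 7 of the 11 member probes were lower, beside 28.8% of all probes of named genes.

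**Figure D1:**
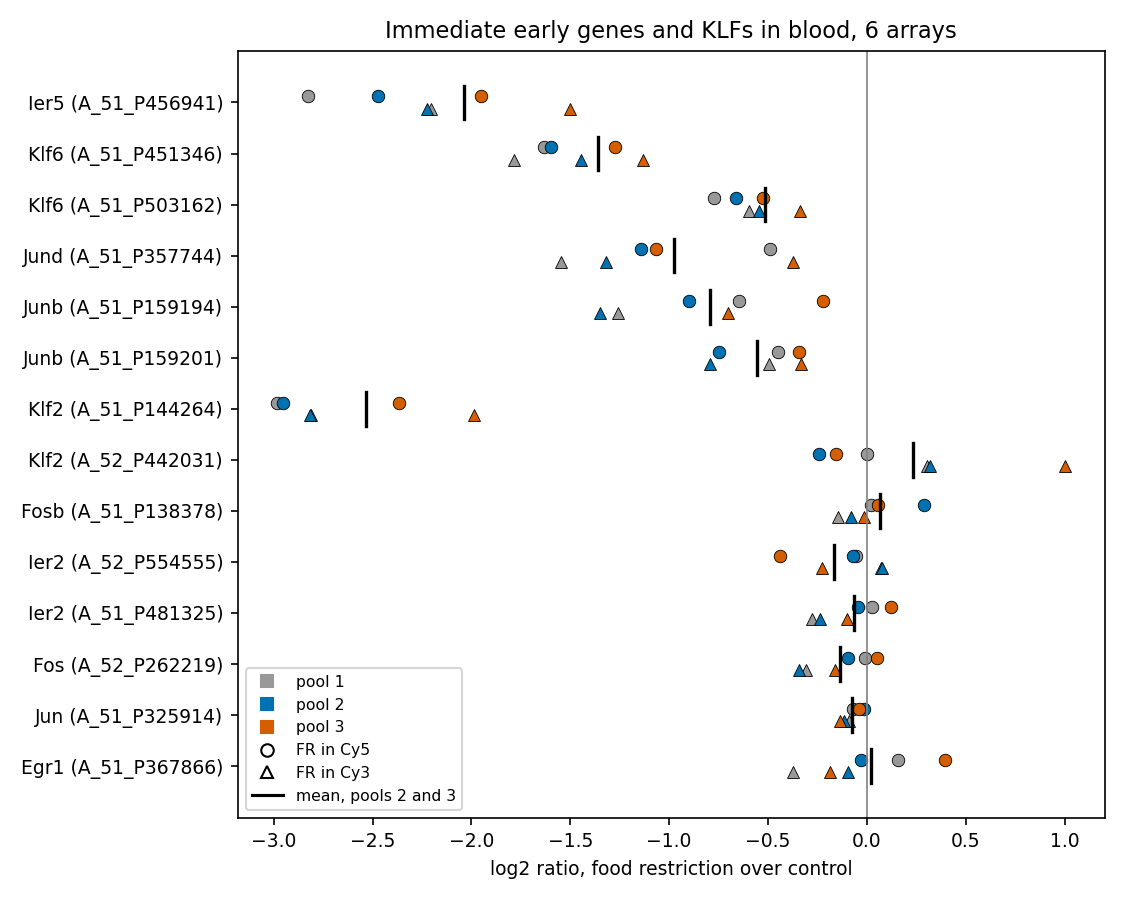
Log2 ratio of FR over control (horizontal axis, log2 units) for each member probe, with 1 point per array and the mean of pools 2 and 3 marked. Ier5, both Klf6 probes, Jund, both Junb probes and 1 Klf2 probe lie below 0 on all 6 arrays, as does Jun, which is near background, whereas Fosb, Ier2 and the brighter Klf2 probe lie on both sides of 0.

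Among the AP-1 proteins, Jund is the member made steadily in resting cells, and it is known to slow growth in several cell types. Its probe was bright in both diets. Control signals ran from 65245 to 135429.9 (median 96493) and FR signals from 39421 to 65848 (median 47694). The ranges overlapped only where the highest FR signal met the lowest control signal. Its log2 ratios were -0.49 with FR in Cy5 and -1.55 with FR in Cy3 in pool 1, -1.14 and -1.32 in pool 2, and -1.07 and -0.37 in pool 3. The 2 arrays of pool 1 and those of pool 3 differed widely but were all below 0. The mean was -0.98 ± 0.36 (SD, n = 2; limma adjusted p = 4.22e-08, or 0.0164 with the 3-pool variance).

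Junb encodes an AP-1 subunit induced by cytokines and growth factors and active in myeloid cells and T helper cells. Its 2 probes both gave lower values in FR. For A_51_P159201, which stands for the gene, control signals ran from 2707 to 4922 (median 3971) and FR signals from 1969 to 2676 (median 2331), with no overlap. The log2 ratios were -0.45 and -0.50 in pool 1, -0.75 and -0.79 in pool 2, and -0.34 and -0.33 in pool 3. The dye orientations gave nearly the same values, and the pools differed more. The mean was -0.56 ± 0.31 (SD, n = 2; limma adjusted p = 0.00105). This call was lost with the 3-pool variance (adjusted p = 0.0644) and when FR and control were fitted as separate channels without the replicate block (adjusted p = 0.178).

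The other Junb probe, A_51_P159194, had log2 ratios of -0.65 and -1.26 in pool 1, -0.90 and -1.35 in pool 2, and -0.22 and -0.70 in pool 3. Each pool was lower with FR in Cy3. Its mean was -0.79 ± 0.47 (SD, n = 2; limma adjusted p = 3.04e-06, or 0.0369 with the 3-pool variance). FR signals of 875.8 to 1441 overlapped control signals of 1081 to 3222. The difference between the Junb probes was 0.24 ± 0.16 and did not pass the test (limma adjusted p = 0.172).

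Fosb, a Fos relative that pairs with Jun proteins, did not pass the test. Control signals ran from 7399 to 14369.7 (median 9066) and FR signals from 7426 to 13082 (median 10424), and the ranges almost coincided. Its log2 ratios were 0.02 and -0.15 in pool 1, 0.29 and -0.08 in pool 2, and 0.06 and -0.01 in pool 3. All 3 arrays with FR in Cy5 were above 0 and all 3 with FR in Cy3 below it. The mean was 0.06 ± 0.06 (SD, n = 2; limma adjusted p = 0.792).

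Fos and Jun, the founding partners of AP-1, gave dim spots, although each array carried 10 spots of each probe. Fos signals ran from 39.9 to 204.2 in control (median 107.1) and from 43.6 to 75.7 in FR (median 52.5). With control RNA in Cy5, 10, 10 and 6 of its 10 spots in pools 1, 2 and 3 were well above background, and with control in Cy3, 0, 4 and 0 were. For FR the counts were 8, 0 and 1 in Cy5 and 0 on the 3 arrays in Cy3. The counts differed between the dyes and, within a dye, between the diets, and neither difference was tested. The log2 ratios of Fos were -0.01 and -0.31 in pool 1, -0.10 and -0.34 in pool 2, and 0.05 and -0.16 in pool 3, with a mean of -0.14 ± 0.12 (SD, n = 2; limma adjusted p = 0.465 when the filter was lifted). No spot of Jun was well above background on any array in either diet. Its signals were 17.1 to 48.6 in control and 15.6 to 33.7 in FR, so its ratio of -0.08 ± 0.02 (SD, n = 2; limma adjusted p = 0.665 with the filter lifted) compares 2 levels near background.

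Egr1, a zinc finger factor induced through SRF, was as dim. Its control signals ran from 22.2 to 122.2 and its FR signals from 28.3 to 71.2, and it was well above background in control on 1 of 6 arrays and in FR on 0 of 6. The 6 arrays gave log2 ratios of 0.16 and -0.37 in pool 1, -0.03 and -0.10 in pool 2, and 0.39 and -0.19 in pool 3. The sign differed between arrays of the same pool in pools 1 and 3. The mean was 0.02 ± 0.12 (SD, n = 2; limma adjusted p = 0.935 with the filter lifted). For Fos, Jun and Egr1, a change was not detectable at this signal.

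Ier2, a nuclear protein induced early by growth factors, was measured by 2 probes. Through A_51_P481325 its log2 ratios were 0.03 and -0.28 in pool 1, -0.04 and -0.24 in pool 2, and 0.12 and -0.10 in pool 3. Control signals ran from 665.7 to 927.3 and FR signals from 563.9 to 1118, with the control range inside that of FR. The mean was -0.07 ± 0.11 (SD, n = 2; limma adjusted p = 0.801). Through A_52_P554555 the ratios were -0.06 and 0.07 in pool 1, -0.07 and 0.08 in pool 2, and -0.44 and -0.23 in pool 3. Only pool 3 was clearly below 0 on both arrays, and the mean of -0.17 ± 0.24 did not pass (SD, n = 2; limma adjusted p = 0.446). With median centring in place of loess it did (adjusted p = 0.0114).

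Klf2 had 2 probes of the same accession that disagreed. The dimmer one, A_51_P144264, had control signals from 3437 to 8617 (median 5015) and FR signals from 402.4 to 733.3 (median 492.5), and the groups stood far apart. Its log2 ratios were -2.98 and -2.81 in pool 1, -2.95 and -2.82 in pool 2, and -2.37 and -1.99 in pool 3. It was the most lowered of the 14 member probes. Its mean was -2.53 ± 0.50 (SD, n = 2; limma adjusted p = 2.36e-57 with each probe a feature, or 0.00193 with the 3-pool variance), and -3.37 on the processed signals. FR signal was well above background on all 6 arrays.

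The brighter Klf2 probe, A_52_P442031, had control signals from 68012 to 163426 (median 99595) and FR signals from 69115 to 165382 (median 126556). The ranges were nearly the same. Its log2 ratios were -0.0016 and 0.30 in pool 1, -0.24 and 0.32 in pool 2, and -0.16 and 1.00 in pool 3, so all 3 arrays with FR in Cy3 were above 0 and all 3 with FR in Cy5 below it. The mean was 0.23 ± 0.27 (SD, n = 2; limma adjusted p = 0.401). The difference between the probes, brighter minus dimmer, was 2.92 in pool 2 and 2.60 in pool 3, 2.76 ± 0.23 on average (SD, n = 2; limma adjusted p = 0.000268), and 2.21 to 3.14 on the 6 arrays.

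Such a gap was rare. Among 1384 genes with several probes past the filter, the median size of the difference was 0.22 and 29.3% of the genes passed its test. Klf2 had the 2nd largest difference and Klf6 the 125th. The files hold no probe sequence, so which part of the Klf2 message each probe reads is not known here, and no single direction for Klf2 is given.

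**Figure D2:**
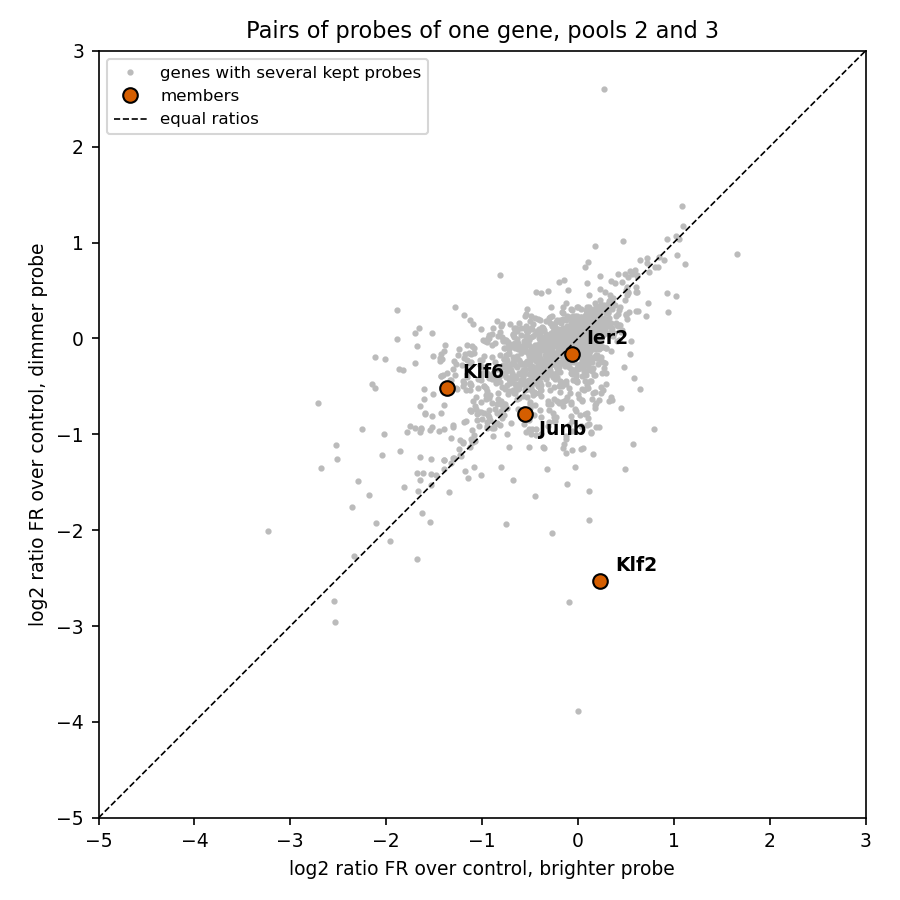
Log2 ratio of FR over control of the brighter probe (horizontal axis) against that of the next brighter probe (vertical axis) for 1384 genes with several probes past the filter, with the 4 such members named. Klf2 lies far from the line of equal ratios, at 0.23 and -2.53, whereas Junb and Ier2 lie near it.

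**Figure D3:**
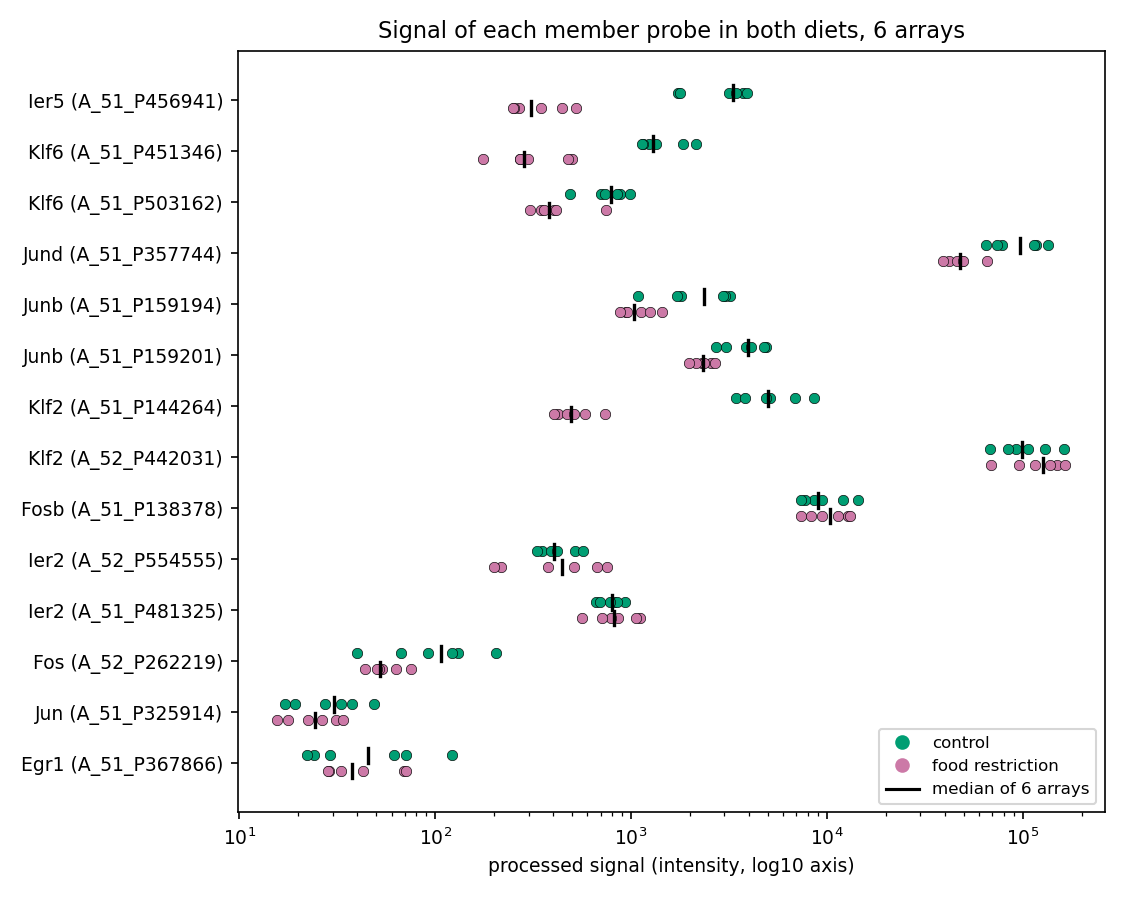
Processed signal (log scale, arbitrary units) of the member probes in FR and in control on each of the 6 arrays. FR and control do not overlap for Ier5, Klf6 A_51_P451346, Junb A_51_P159201 and Klf2 A_51_P144264, and Fos, Jun and Egr1 lie at the bottom of the scale in both diets. The arrays share animals, and the share of all probes without overlap is not given.

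Pool 3 was less lowered than pool 2 for each of the 4 lowered genes: -1.73 against -2.35 for Ier5, -1.20 against -1.52 for Klf6, -0.72 against -1.23 for Jund and -0.34 against -0.77 for Junb. With 1 ratio per pool, this difference between pools has no test. Pool 1, of all 8 animals per diet, gave -2.52, -1.71, -1.02 and -0.47 for the same genes. The pool difference was not particular to the members. In pools 2 and 3 the list medians were -0.83 and -0.55 for Klf2-dependent genes, -2.19 and -1.72 for B cell and -1.49 and -0.57 for monocyte markers. Of the lists with a median below 0, only platelet (-0.98 and -1.11) and endothelial markers (-0.33 and -0.36) were more lowered in pool 3. By the smallest root mean square distance over the 6 arrays to the mean profile of the 7 tested members, the most similar named genes were Ctdsp1, Puf60 and Sdf4, at distances of 0.051, 0.060 and 0.067 and with log2 ratios of -0.65, -0.63 and -0.62. The distance is a description over arrays that share animals.

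For each of the gene lists, 28.2% lower among all named genes is the share to read its count against, or 21.9% where both diets had to be above background and 9.92% without the replicate block. Of 11 other immediate early transcription factors tested, 3 were lower, 1 was higher and 7 did not pass; their median was 0.12, where all named genes tested had -0.04. The other 11 of 22 did not pass the signal filter. With both diets above background, 1 of 7 was lower and 1 was higher. Irf1, an interferon response factor, was at -1.66 ± 0.63, Klf4, a monocyte differentiation factor, at -1.22 ± 0.34 and the nuclear receptor Nr4a1, which antigen receptor signals induce, at -0.99 ± 0.38 (SD, n = 2). Mafk, a small Maf protein that pairs with NF-E2, was higher at 0.85 ± 0.34 (SD, n = 2). Egr2, a relative of Egr1, was at 0.16 and Csrnp1 at 0.19, neither past the test.

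Of 19 immediate early genes of signalling and RNA decay tested, 13 were lower and 6 did not pass, and the list median was -0.61 (pool 2 -0.77, pool 3 -0.36). With the 3-pool variance 9 were lower, without the replicate block 5, and with both diets above background 4 of 9. Mcl1, a short-lived survival protein of the BCL2 family, was at -2.52 ± 0.40. The antiproliferative gene Btg1 was at -1.52 ± 0.30, Rgs2, which shortens G protein signals, at -1.44 ± 0.64, and Zfp36l1, which speeds the decay of AU-rich messages, at -1.34 ± 0.51 (SD, n = 2). Btg2, a relative of Btg1, was at -0.07 and Ppp1r15a, a stress-induced phosphatase subunit, at 0.20, neither past the test. Averaged over its probes, the log2 ratio of Btg2 was -0.40 and passed (limma adjusted p = 0.0348).

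Of 18 tested kinases and factors that act upstream of immediate early transcription, 5 were lower and 13 did not pass (median -0.10), a share close to that of all named genes. With the 3-pool variance 2 stayed lower, with both diets above background 1 of 7, and without the replicate block 0 of 18. Mapk14, the stress kinase p38 alpha, was at -0.82 ± 0.11, Map2k1, a kinase of the MAP kinase cascade, at -0.50 ± 0.48 and Mapkapk2, a p38 target, at -0.44 ± 0.21 (SD, n = 2). Mapk3, which is ERK1, was at -0.09 and Map2k2 at 0.28, neither past the test. The Map2k1 and Mapkapk2 calls were lost with the 3-pool variance (limma adjusted p = 0.125 and 0.114), and that of Mapk14 without the replicate block. There the log2 ratio of Mapk14 had an adjusted p of 0.0869. With pool 1 in place of pool 2, the log2 ratio of Map2k1 was -0.45 and did not pass (limma adjusted p = 0.112), although those pools share animals.

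Among 15 tested partners of AP-1 and other bZIP factors, 5 were lower, 1 (Mafk again) was higher and 9 did not pass (median -0.14). With both diets above background 1 of 9 was lower, and without the replicate block 1 of 15. Nfe2, a factor of platelet and red cell precursors, was at -1.19 ± 0.16, the acute phase factor Cebpd at -0.79 ± 0.20 and the antioxidant factor Nfe2l2 at -0.70 ± 0.23 (SD, n = 2). Without the replicate block the calls on Cebpd and Nfe2l2 were lost: the log2 ratio of Cebpd had a limma adjusted p of 0.204 and the log2 ratio of Nfe2l2 one of 0.0965. Mafg was at -0.18 and the stress factor Ddit3 at 0.0024, neither past the test. Of 11 other Klf and Sp factors, 3 were lower and 8 did not pass (median -0.22), again close to the share of all named genes. With both diets above background 1 of 4 was lower, and without the replicate block 1 of 11. Beside Klf4 these were Klf13 at -0.56 ± 0.39 and Klf3 at -0.50 ± 0.27 (SD, n = 2), and both calls were lost with the 3-pool variance (limma adjusted p = 0.0644 and 0.0848). With pool 1 in place of pool 2, which shares animals with pool 3, the log2 ratio of Klf13 was -0.49. It did not pass either (limma adjusted p = 0.0534). The glucocorticoid-induced Klf9 was at 0.14 and Klf17 at 0.11, neither past the test.

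Of 17 tested genes known to depend on Klf2 or to hold lymphocytes at rest, 15 were lower and 2 did not pass (median -0.66). With the 3-pool variance 12 were lower, and without the replicate block 8. With both diets above background 5 were left to test, of which 3 were lower. Foxo1, a quiescence factor that switches on Klf2, was at -1.59 ± 0.37 and the lymph node homing receptor Ccr7 was at -1.35 ± 0.25 (SD, n = 2). Btg2 and Tsc2, an inhibitor of mTOR signalling, at -0.09, did not pass. The lists share genes: Btg1 and Btg2 also stand in the signalling list, and Klf3 and Klf13 among the Klf factors.

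**Figure D4:**
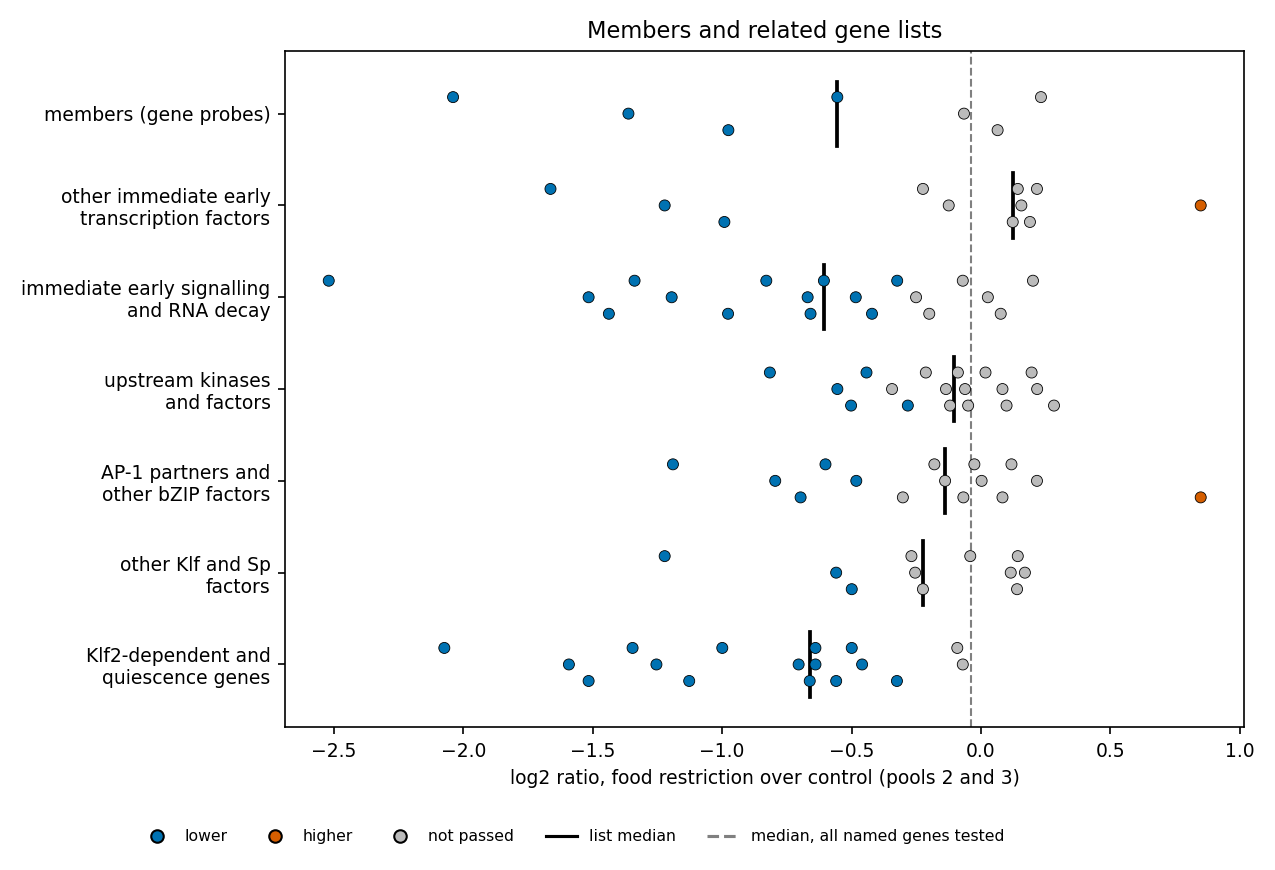
Log2 ratio of FR over control (mean of pools 2 and 3, horizontal axis) of the tested members and of the tested genes in 6 related lists, 1 point per gene, coloured by call, with a bar at each list's median and a dashed line at the median of all named genes, -0.04. The Klf2-dependent and quiescence list has 15 of 17 genes lower and a median of -0.66.

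Markers of several blood cell types were also lower in FR: 8 of 10 tested B cell markers (median -1.96; Cd79b at -4.48 ± 0.27, SD, n = 2), 9 of 10 monocyte markers (-1.02; Ctss at -3.48 ± 0.88), 3 of 6 dendritic cell markers (-1.43), 4 of 6 NK cell markers (-0.996), 4 of 9 T cell markers (-0.27; Cd3d at -1.89 ± 0.25) and 9 of 12 platelet markers (-1.07; Ppbp at -2.67 ± 0.55). The T cell list thus had 5 of 9 markers that did not pass. The 3 lower dendritic cell markers were the MHC class II presentation genes Cd74 (-3.58), H2-Aa (-2.54) and H2-Ab1 (-2.53). Flt3 at 0.34, Batf3 at -0.03 and Bst2 at -0.34 did not pass. Of 9 neutrophil markers 4 were lower and 1 was higher (-0.22), of 4 eosinophil or basophil markers 1 was lower (0.11), and of 8 erythroid markers 2 were higher and 1 was lower (0.11). Of markers of tissue a heart puncture could carry, 2 of 4 endothelial ones were lower (-0.35), and 0 of 5 cardiac muscle (0.17) and 0 of 3 hepatocyte ones (0.06) passed in either direction. The 2 lower endothelial ones were Vwf at -0.93 and Esam at -0.52, while Pecam1 at -0.17 and Cdh5 at 0.15 did not pass. Whether tissue carried over differed between the diets was not tested. With the 3-pool variance the lower counts were 6 for monocyte, 8 for platelet, 1 for neutrophil and 1 for endothelial markers, the eosinophil or basophil call was lost, and those of B, T, NK and dendritic cells stayed at 8, 4, 4 and 3. Genes used as references because most cells express them also moved: of 12 tested, 6 were lower, 3 were higher and 3 did not pass (-0.36), with B2m at -2.33 ± 0.05 and Ywhaz at -1.43 ± 0.15 (SD, n = 2).

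Summed over a marker list, the processed signals on the 4 arrays of pools 2 and 3 showed how far the diets lay apart. Such a sum mostly follows the brightest probes of its list. The share of all genes or lists without overlap is not given, so the ranges are a description. The B cell sum was 6513 to 8554 in FR and 44192 to 92695 in control, the monocyte sum 26218 to 34161 and 174386 to 423428, the NK cell sum 906.8 to 1172 and 4108 to 6149, and the T cell sum 10933 to 15648 and 16791 to 23456. The platelet sum was 227027 to 377578 in FR and 630214 to 893833 in control. None of these 5 pairs of ranges overlapped. Nor did the dendritic cell sums, 6089 to 9433 in FR and 34190 to 71426 in control. The endothelial sums, 15116 to 24456 in FR and 25889 to 44993 in control, lay apart too. In contrast, the neutrophil sums, 44798 to 69871 in FR and 54467 to 178033 in control, overlapped. So did the erythroid sums, 2403900 to 4792673 in FR and 1875605 to 4192920 in control, and the eosinophil or basophil, cardiac muscle and hepatocyte sums. In whole blood, fewer cells of a type and less RNA per cell cannot be told apart, and the part of these markers in the members' ratios was not tested.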

How the data were processed

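RNA of 3 pools of whole blood was measured on 6 two-colour Agilent arrays, each carrying FR and control. The scanner files as deposited give each spot's intensity on a linear scale. The submitters' processing notes name Agilent Feature Extraction 11.0.1.1 for them. A table by the authors of log10 ratios (red over green processed signal, neither centred nor turned) was an alternative. Which dye held FR was read from the labels.

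Median signals were background corrected with normexp (offset 50), since the columns used here hold medians, and loess was run within arrays with control spots at weight 0. Outlier spots were left out, spots of a probe and the 2 arrays of a pool were averaged, and ratios were turned to FR over control. Probes were kept where 1 diet, the same throughout, was well above background on each of the 4 arrays of pools 2 and 3. The brightest probe stood for its gene. Probes were named by accession, without version, through the RefSeq table of GRCm38.p6 (23374 of 41174 probes), whose gene coordinates were not used because the array design rests on an older build.

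Ratios of pools 2 and 3 were tested against 0 with limma 3.58.1 in R 4.3.3 (eBayes with trend, two-sided, Benjamini-Hochberg over 11501 features, also where each probe was a feature, over all probes kept). Control and FR of a pool share the array, which makes the comparison paired by construction. With 2 pools limma gave features of like signal the same variance, so its p-values are too small where genes differ in spread. The 3-pool variance takes 5.40 prior degrees of freedom from a fit of all pools. The fit was also run on simulated data. Features of like signal had the same variance there, so that run cannot show how far the p-values are too small. Figures were drawn with matplotlib 3.10.9.

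The members and gene lists were chosen with earlier results of these data known. Named from each list were the 4 most changed genes past the threshold and up to 2 bright ones that did not pass; from the marker lists, the most changed. Some genes that this rule takes are not reported here. The number of arrays limits the precision.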

Additional observations from a re-analysis of the deposited data

Results flagged for a closer look

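The mean ratio of Fosb was -0.0799 with FR in Cy3 and 0.12 with FR in Cy5, each over 3 arrays, with every array on its own side of 0. The brighter Klf2 probe had a mean of 0.54 with FR in Cy3 and -0.13 with FR in Cy5, again with every array on its own side. The difference between dye orientations was not tested for either gene.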

How the results depend on the processing

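Over the 19 alternatives run, Jund stayed below 0 and past the threshold in each, with log2 ratios from -1.12 to -0.85, and Ier5 (-3.11 to -1.83) and Klf6 (-2.30 to -0.94) did so in the 18 that could be run for them. Junb stayed below 0 in all 19 and lost its call in 2. Klf2 turned to -1.15 when its probes were averaged (limma adjusted p = 2.95e-13), and with slide as a block over 6 arrays its ratio of 0.22 passed (adjusted p = 0.0275), although the arrays share animals there. Where both diets had to be above background, 2 of 5 members were lower, beside 21.9% of all named genes, since Ier5 and Klf6 leave the test. Of the member probes 4 of 7 were lower there, both Junb probes among them. The share of all probes under that filter is not given. Leaving out pool 2 or pool 3, with pool 1 in its place, gave 4 to 4 members. Pool 1 holds the animals of both, so the pools compared there are not independent and their p-values are too small. Over all named genes, 2484 changed; leaving out a pool gave 2174 to 4318 (the latter without pool 3, 1048 of them higher). Requiring both diets above background gave 1316 (1051 lower, of 4805 tested), slide as a block 5643 (2186 higher), no replicate block 851 and the 3-pool variance 1512. With median centring, 106 were higher and 3209 lower, and the median feature moved to -0.19. The cause was not tested. Without the replicate block, which is the paired comparison within an array, 3 members stayed lower. Dim signal limits Fos, Jun and Egr1, for which nothing could be tested here with the filter on.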
